A study of Mus musculus with 2 samples.

Results

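The 10 genes described here are markers of Kupffer cells and other macrophages: Clec4f, Cd5l, Vsig4, Marco, Emr1, Csf1r, Cd68, Lyz2, Timd4 and Cd163. They were chosen by name, as the genes whose spots on the array carry 1 of these names and are not controls. All 10 were found, with 14 probes, among 30153 genes and 39390 probes on the array. The RNA of 2 mouse samples was compared, each on 1 Agilent array with Cy3 label. The first came from mature hepatocytes (MHs) of normal, healthy livers, collected by low-speed and then Percoll gradient centrifugation. The second came from Sox9+EpCAM- cells of DDC-injured livers, which FACS isolated as GFP+EpCAM- cells. DDC is a compound that injures the bile ducts when it is fed to mice. Per the methods, all the livers came from Sox9-EGFP mice, in which a transgene marks Sox9 expressing cells with GFP. The gate stated for the second sample thus used GFP and EpCAM, and no sort was stated for the MHs. In other experiments of the study, GFP and EpCAM were read within cells negative for the endothelial protein CD31 and the leukocyte protein CD45. Whether that gate also applied to the array sample is not given in the sources used here. A length of DDC feeding is stated for cells sorted in other experiments of the study, but not expressly for the array sample. Age and the number of mice behind each array are not given in the sources used here. The labels call both samples male. However, Xist, which silences an X chromosome in females, read 1940 in MHs but 16.1, not well above background, in Sox9+EpCAM- cells. The Y-linked genes Ddx3y, Kdm5d, Uty and Eif2s3y were the reverse, with none of the 4 well above background in MHs and all of them in Sox9+EpCAM- cells. This holds for the brightest probe of Uty, and its other probe was well above background on neither array. Sex, diet, isolation and cell type therefore cannot be told apart here.

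Kupffer cells are the resident macrophages of the liver. They sit in the sinusoids, where they take up particles, dying cells and bacteria from portal blood through scavenger, complement and lectin receptors. Their survival depends on the receptor Csf1r and its ligands, and the transcription factor PU.1 (named Sfpi1 on this array) is required for macrophage identity. Hepatocytes themselves are not known as a site of Clec4f, Vsig4 or Timd4 expression. In whole populations of cells such as these, fewer macrophages in a sample and less RNA per macrophage cannot be told apart.

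Each intensity is the fluorescence of a spot after background subtraction by the scanner software. For comparison, it was divided by the 75th percentile of its array, which was 741 for MHs and 1110 for Sox9+EpCAM- cells, and taken to log2. A difference is always the Sox9+EpCAM- level minus the MH level. With a single array for each sample there is no replicate, and no test is possible. The error given is the one the software attaches to a spot, carried over to the log2 scale, and covers only the reading of the array. As a second measure, probes printed at least 8 times had a median SD between spots of 0.08 on the log2 scale on each array. Every probe of the 10 genes was printed once. A probe not well above background on 1 array gives a bound, set against the lowest intensity well above background there, which was 27.8 for MHs and 18.4 for Sox9+EpCAM- cells. Saturation was not reached by any spot, and 64.0% of the spots for MHs and 74.8% of those for Sox9+EpCAM- cells were well above background.

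The array reads each gene through probes of 60 bases, and the first 30 bases are shown, 5′ to 3′, for Clec4f and Cd5l, with the largest measured decreases, for Vsig4, with the largest bound, and for both probes of Cd68. The Clec4f and Cd5l probes lie at chr6:83595281-83595339 and chr3:87174823-87174882 of mm9, the Vsig4 probe lies at chrX:93442598-93442657, and those of Cd68 lie at chr11:69478979-69479038 and chr11:69477775-69477834. Whether they fall in coding sequence or in a UTR was not determined here.
Clec4f: aactggagacataggaacggagagcgagaa
Cd5l: atggtagagacttgaggagttgggacctcg
Vsig4: ggattactcctctttctctagggccagatg
Cd68, first probe: ccgaatcctatacccaattcagggtggaag
Cd68, second probe: gcctcatctcttcaccatgccactgactca
Identical runs of 20 bases with any other gene's probe, which 7.67% of all probes have, were found in 0 of the 14.

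All 10 markers gave signals well above background in MHs, and in Sox9+EpCAM- cells 8 of them had fallen by 4-fold or more. Among all 21875 genes with a difference, 5.96% were at least 4-fold lower and 5.98% at least 4-fold higher. The only marker at least 4-fold higher was Cd68, and Csf1r stayed within 4-fold by its brightest probe. The median difference over the 10 genes was -3.46 on the log2 scale, against -0.12 over all genes with a difference. Scaling to Gapdh moved all genes up by 0.27 and gave 1006 genes lower and 1650 higher by 4-fold, against 1304 and 1309 with the 75th percentile. The count of markers at least 4-fold lower was 8 under that scaling too. It was 6 under normexp, another background correction, and 5 with only genes measured on both arrays.

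**Figure D1:**
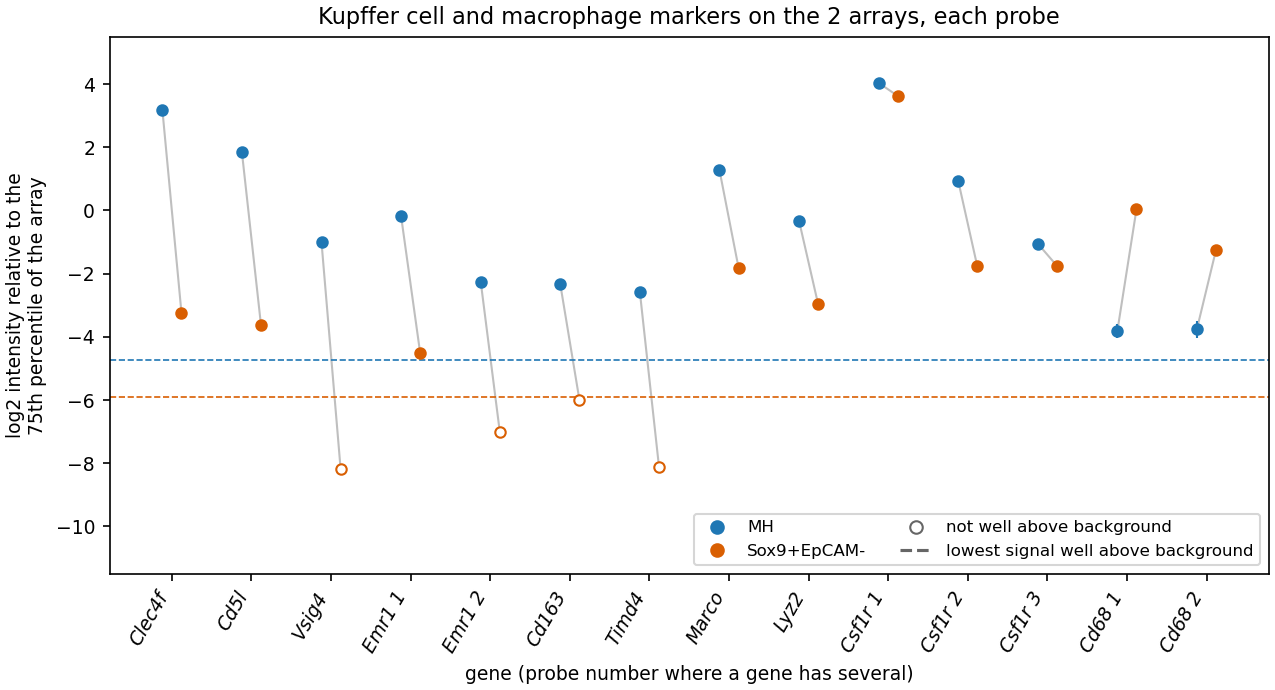
Log2 intensity relative to the 75th percentile of the array (y axis) for each of the 14 probes (x axis) on the MH array (blue) and the Sox9+EpCAM- array (orange). Bars are the error of the spot by the scanner software, open points are not well above background and have no bar, and dashed lines are the lowest intensity well above background. All 14 MH points are filled, and only the 2 probes of Cd68 rise from MH to Sox9+EpCAM-.

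The largest measured decrease was that of Clec4f, a C-type lectin receptor that in mice marks Kupffer cells. Its probe read 6780 in MHs and 118 in Sox9+EpCAM- cells. The difference was -6.43 ± 0.21 on the log2 scale (error of the spots, 1 array each), or 86.1-fold. The probe was still well above background in Sox9+EpCAM- cells, so this is a measured difference and not a bound. Only 16 of the 19232 genes measured on both arrays had a larger decrease.

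Cd5l, which encodes a secreted protein of macrophages also known as AIM, followed with 2650 in MHs and 89.0 in Sox9+EpCAM- cells. This is a log2 difference of -5.48 ± 0.22, or 44.6-fold. Vsig4, a complement receptor of the immunoglobulin family that captures particles coated with C3 fragments, read 368 in MHs. Its signal of 3.81 in Sox9+EpCAM- cells was not well above background, so its log2 difference was -4.90 or lower. Under normexp Vsig4 had -3.25. Whether Vsig4 fell by more or by less than Cd5l is not known, since the value of Vsig4 is a bound.

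Marco, Cd163 and Timd4, which bind bacteria, haemoglobin complexes and dying cells, were lower as well. Marco, a receptor for bacteria and particles, went from 1800 in MHs to 316 in Sox9+EpCAM- cells. Its log2 difference was -3.09 ± 0.20, or 8.53-fold lower. The file gives its probe only the span chr1:122371115-122371134, shorter than the probe. Cd163, the receptor for haptoglobin bound to haemoglobin, went from 147 to 17.5, just under the limit of 18.4, so its log2 difference was -3.58 or lower. Timd4, a receptor for phosphatidylserine on dying cells, went from 124 to 4.03, not well above background, and was at least 10.1-fold lower. For Vsig4, Cd163 and Timd4 the size of the decrease is thus limited by the background. Under normexp Cd163 had a log2 difference of -1.97 and Timd4 -1.99, less than 4-fold.

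Emr1 encodes F4/80, the surface protein used most widely to stain mouse macrophages, and is now named Adgre1. It has 2 probes on chromosome 17. The probe at chr17:57620350-57620409 gave 652 in MHs and 48.4 in Sox9+EpCAM- cells, or a log2 difference of -4.33 ± 0.23. That at chr17:57622868-57622927 gave 156 and 8.63, not well above background, and was at least 12.7-fold lower. The 2 probes of Emr1 therefore fell together. Lyz2, the lysozyme of myeloid cells, gave 591 in MHs and 142 in Sox9+EpCAM- cells, or a log2 difference of -2.64 ± 0.21. This is a 6.23-fold decrease. The Lyz2 probe lies at chr10:116719175-116719234, that of Cd163 at chr6:124270436-124270495 and that of Timd4 at chr11:46657173-46657232. Lyz2 has a close copy, Lyz1, and binding of its RNA to the Lyz2 probe was not tested.

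**Figure D2:**
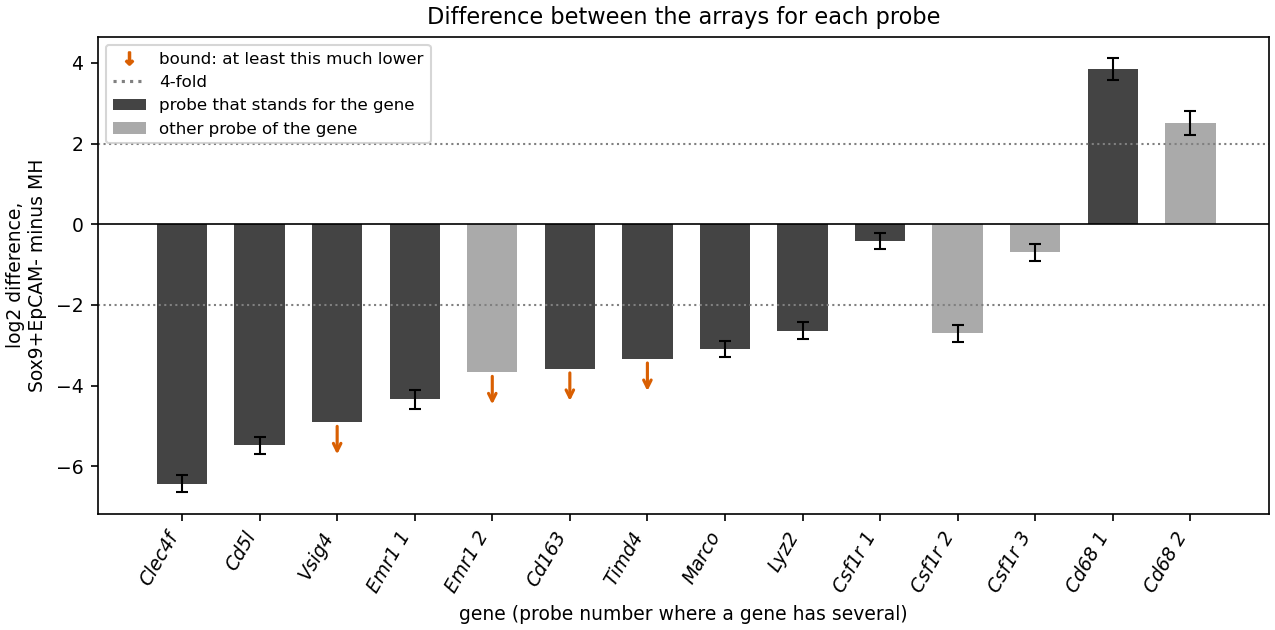
Log2 difference between the Sox9+EpCAM- and MH arrays (y axis) for each probe (x axis), with dark bars for the probe that stands for its gene and light bars for other probes. Error bars are the spot errors of both arrays combined, arrows mark bounds, and dotted lines mark 4-fold. The probes of Csf1r differ from each other, and those of Cd68 are the only ones above 0.

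Csf1r, the receptor for CSF1 and IL-34, has 3 probes on chromosome 18, and they gave different answers. The brightest, at chr18:61278661-61278720, read 12200 in MHs and 13700 in Sox9+EpCAM- cells, or a log2 difference of -0.42 ± 0.20 after scaling. The probe at chr18:61289398-61289758 had 1420 and 326, a difference of -2.71 ± 0.20, or 6.52-fold lower. The probe at chr18:61290725-61290784 had 358 and 330, a difference of -0.70 ± 0.21. The first and the second probe differ from each other by 2.29 ± 0.29 on the log2 scale, more than the error of the spots, whereas the first and the third differ by 0.28 ± 0.29. All 3 probes were below 0, by very unequal amounts, and the reason was not tested. Under quantile normalization the brightest probe had a difference of 0.

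Cd68 moved against the other markers. It encodes macrosialin, a glycoprotein of late endosomes and lysosomes that is abundant in macrophages. The probe at chr11:69478979-69479038 read 52.9 in MHs, well above background, and 1140 in Sox9+EpCAM- cells. The log2 difference was 3.85 ± 0.26, or 14.4-fold, and 99.5% of the genes measured on both arrays had a lower value. The second probe, at chr11:69477775-69477834, rose from 55.2 to 469, by 2.50 ± 0.30 on the log2 scale, or 5.67-fold. The 2 probes thus rose together, although the sizes differ by 1.34 ± 0.40. Cd68 had a log2 difference of 3.18 by the median of both probes and 2.73 under normexp. No other RefSeq gene (GRCm38.p6) overlaps Cd68, and the neighbours Mpdu1 and Eif4a1 had differences of 0.81 and 0.03.

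**Figure D3:**
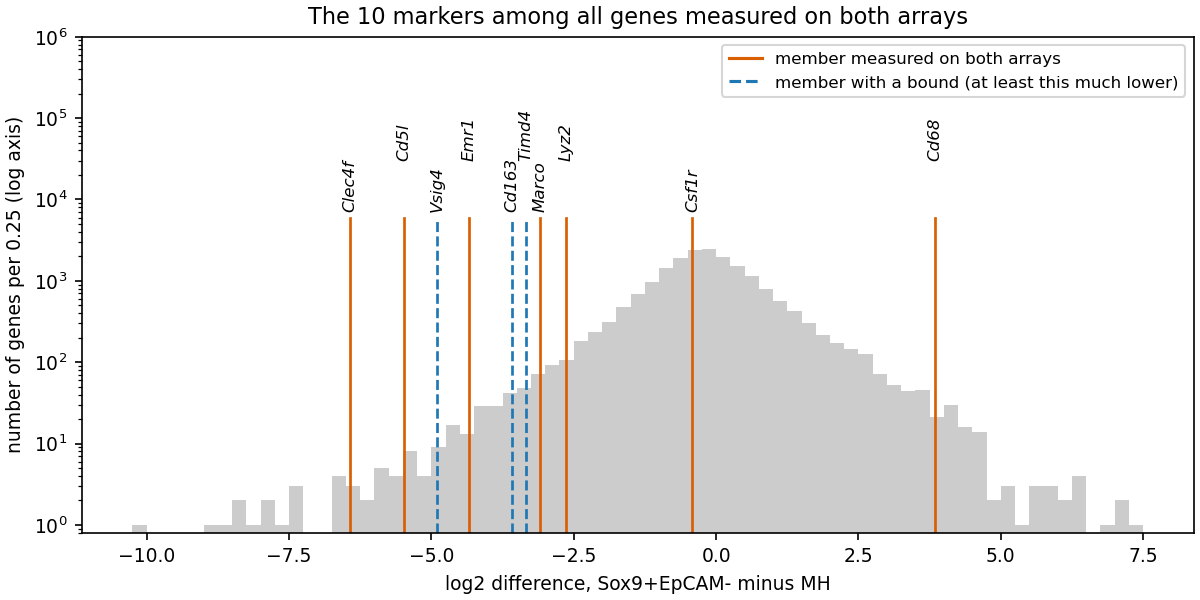
Number of genes (y axis, log scale) by log2 difference between the Sox9+EpCAM- and MH arrays (x axis, bins of 0.25) for the 19232 genes measured on both arrays. Lines mark the 10 markers, solid where measured on both arrays and dashed where the value is a bound. Of these lines 8 lie on the left flank, Csf1r lies near the centre at -0.42 and Cd68 lies on the right flank at 3.85.

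Other genes that macrophages use were then read from lists written down by name. Of 12 genes for complement C1q, signalling adaptors of Fc receptors, the phagocyte oxidase and other macrophage proteins, 4 were at least 4-fold lower, 7 changed less and 0 were 4-fold higher, and 1 was well above background on neither array. The median over the 11 with a difference was -1.80. Laptm5, a lysosomal membrane protein of haematopoietic cells, was 46.6-fold lower, from 2550 in MHs to 82.0 in Sox9+EpCAM- cells. Aif1, which encodes the macrophage protein IBA1, was 18.3-fold lower, and C1qb, a chain of complement C1q, 6.89-fold. Ctss, a lysosomal protease of antigen presenting cells, went the other way and rose from 60.5 to 272, a log2 difference of 1.59. It was 0.94 and less than 2-fold under normexp, a background correction that was run here with an offset added to every signal. Under normexp Laptm5 had -4.57 and Aif1 -2.89.

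Among 16 phagocytic and pattern recognition receptors, 5 were at least 4-fold lower and 2 at least 4-fold higher, with a median of -0.74 over 13 genes with a difference. Mrc1, the mannose receptor, read 475 in MHs and 4.17, not well above background, in Sox9+EpCAM- cells, at least 38.7-fold lower. Fcgr2b, an inhibitory Fc receptor, was 23.0-fold lower, and Axl, a receptor in the clearance of dying cells, 17.2-fold. Both Mrc1 and Fcgr2b are also expressed by sinusoidal endothelial cells of the liver. In contrast, Cd14, the co-receptor for lipopolysaccharide, rose from 294 to 5110, or 11.6-fold. Tlr2, a receptor for bacterial lipoproteins, was 2.15-fold higher, but fell short of 2-fold under quantile normalization and in the deposited table (0.93 on the log2 scale in each) and under normexp (0.46). Under normexp Mrc1 had a log2 difference of -3.42, Fcgr2b -3.88 and Tlr7 2.56. Tlr7, a receptor for single-stranded RNA, was 14.2-fold higher by its brightest probe, but another of its 3 probes fell from 35.3 to 15.6, not well above background, and the third was above background on neither array.

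The factors and ligands of Kupffer cell identity were divided, with 4 of 14 at least 4-fold lower and 3 at least 4-fold higher, and a median of -0.32. Sfpi1, the gene of PU.1, read 174 in MHs and 11.5, not well above background, in Sox9+EpCAM- cells, at least 14.2-fold lower, or -2.12 on the log2 scale under normexp. Folr2, a folate receptor of tissue macrophages, was 9.62-fold lower. On the other side, Hmox1, the enzyme that breaks down haem, was 23.2-fold higher by its brightest probe, from 1420 to 49400, and its second probe, from 195 to 25800, gave a log2 difference of 6.46. Il34, a ligand of Csf1r, rose from 36.1 to 659, or 12.2-fold (2.06 on the log2 scale under normexp), and Id3, an inhibitor of DNA binding that Kupffer cells use, rose 4.19-fold (1.89 in the deposited table). Hmox1, Il34 and Id3 are also expressed by cells other than macrophages. Spic, a factor of macrophages that handle iron, had 247 and 280, a difference of -0.40 after scaling.

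Monocyte genes were mostly too dim to read. Of 13 on the array, 3 were well above background in MHs and 6 in Sox9+EpCAM- cells, and 7 on neither array, among them Ccr2 and Cx3cr1, chemokine receptors of monocytes. Gpnmb, a glycoprotein of lysosomes, read 6.13, not well above background, in MHs and 694 in Sox9+EpCAM- cells, at least 16.7-fold higher. Lgals3, the gene of galectin-3, was at least 5.64-fold higher, although only by 1.19 on the log2 scale under normexp, where Gpnmb had 2.56. The median over the 5 genes with a difference was 0.60, and it was -1.17 when signals not well above background were taken as they are, so its direction depends on them.

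The lysosomal genes as a group did not move like Cd68. Of 26 enzymes and membrane proteins, 24 stayed within 4-fold, 2 were at least 4-fold higher and 0 at least 4-fold lower, with a median of -0.52. Over all genes with a difference, the shares were 5.98% higher and 5.96% lower. Cd63, a tetraspanin of late endosomes, was at least 134-fold higher, or 5.34 on the log2 scale under normexp. Glb1, the lysosomal beta-galactosidase, rose from 53.6 to 757, or 9.43-fold (2.21 on the log2 scale under normexp). The other members ranged no lower than -1.08, which was the value of Mcoln1, a lysosomal cation channel, by its brightest probe, while its second probe gave 0.18. Ctsb, the protease cathepsin B, was 2.10-fold lower. Neither Mcoln1 nor Ctsb reached 2-fold under quantile normalization (-0.74 and -0.77 on the log2 scale) or when scaled to Gapdh (-0.82 and -0.80).

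Leukocytes in general were compared through 11 genes found in most blood cells, of which 1 was at least 4-fold lower, 9 stayed within 4-fold and 1 had a bound with no direction. The median was -0.53. Among all genes with a difference, 5.96% were at least 4-fold lower. Rac2, a GTPase of blood cells, was 12.1-fold lower, from 364 to 45.5 (-2.44 on the log2 scale under normexp). Cd53 and Cd37, tetraspanins of leukocytes, were 2.65-fold and 2.16-fold lower, although Cd53 did not reach 2-fold under normexp (-0.82 on the log2 scale), nor Cd37 when scaled to Gapdh (-0.84). Ptprc, which encodes CD45, read 195 in MHs and 248 in Sox9+EpCAM- cells, or a log2 difference of -0.24 after scaling. Of 13 T, NK and B cell genes on the array, 7 had a difference, with a median of -0.42, and 0 of them reached 4-fold. Klrb1c (NK1.1) was 2.76-fold and Gzma (granzyme A) 2.03-fold lower, although the Gzma probe has 20 bases in common with that of another gene. Neither reached 2-fold under normexp (-0.80 and -0.58 on the log2 scale), nor did Gzma when scaled to Gapdh (-0.76), and the second Klrb1c probe was well above background on neither array. Cd8a was 2.01-fold higher by 1 probe, while its other probe was well above background on neither array, and the log2 difference was 0.20 under normexp and 0.81 under quantile normalization. The decrease of the Kupffer cell markers thus stood beside smaller median differences in the wider leukocyte lists, and whether the lists differ was not tested.

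**Figure D4:**
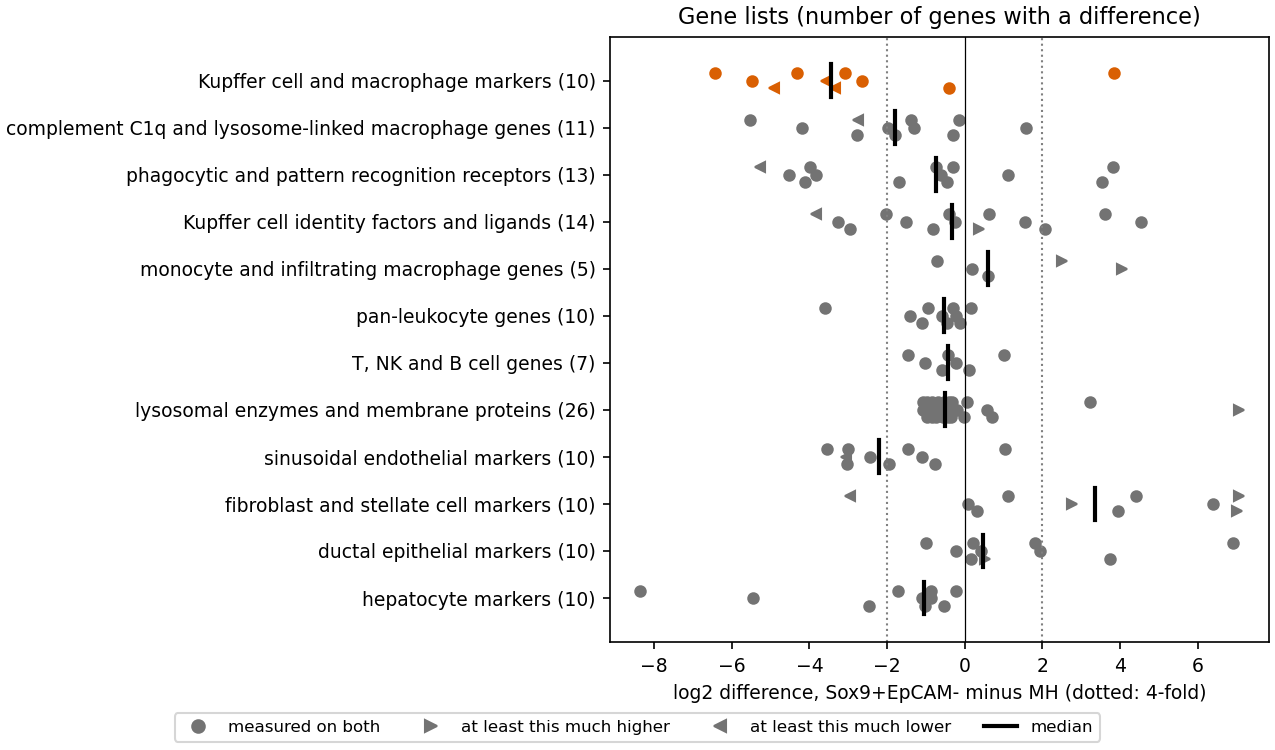
Log2 difference between the Sox9+EpCAM- and MH arrays (x axis) for the genes of each list (y axis, number of genes with a difference in brackets). Circles were measured on both arrays, triangles are bounds, vertical bars are medians and dotted lines mark 4-fold. The median of the Kupffer cell and macrophage markers, -3.46, is the lowest of the 12 lists shown, and that of fibroblast and stellate cell markers, 3.36, is the highest.

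Markers of other liver cells moved between the same 2 arrays. Of 11 sinusoidal endothelial markers, 5 were at least 4-fold lower and 0 higher, with a median of -2.20 over 10 genes, and the sum of their scaled intensities was 9.71 times the 75th percentile in MHs and 3.04 times in Sox9+EpCAM- cells. Lyve1, a hyaluronan receptor, was well above background on neither array. Clec4g, a lectin of these cells, was 11.7-fold lower, Tek, the angiopoietin receptor, 8.20-fold, and Cdh5, the cadherin of endothelium, at least 8.39-fold, while Flt4, a VEGF receptor, was 2.07-fold higher. Under normexp, Cdh5 had a log2 difference of -1.67 and did not reach 4-fold, while Clec4g had -2.52 and Tek -2.23. Flt4 was under 2-fold with normexp (0.61), quantile normalization (0.90) and the deposited table (0.87). Of 11 fibroblast and stellate cell markers, 6 were at least 4-fold higher and 1 lower. Their summed intensity was 12.2 in MHs and 54.3 in Sox9+EpCAM- cells. Without Col3a1, the brightest of the list on either array, the sums were 12.01 and 34.2. Without Dcn, the brightest in MHs, they were 1.34 and 40.8, so the size of the rise depends on the gene left out. Dcn, a matrix proteoglycan, was named after its values were seen. The marker that fell was Lrat, an enzyme of vitamin A storage in stellate cells, at least 7.70-fold, or -1.75 on the log2 scale under normexp, which is less than 4-fold, while the collagen gene Col3a1 was 85.1-fold higher and Eln (elastin) and Mgp (matrix Gla protein) at least 134-fold and 129-fold. Under normexp Eln had a log2 difference of 5.32 and Mgp 4.97.

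Of 10 ductal markers, 2 were at least 4-fold higher, Spp1 and Epcam, and the median was 0.47, with summed intensities of 4.31 and 52.9, or 3.96 and 10.6 without Spp1. Epcam, the protein that the gate selected against, was 13.3-fold higher, and Spp1 (osteopontin) 122-fold. The paper's qPCR used MHs of DDC-injured livers and split the Sox9+EpCAM- cells by the surface protein CD24. There, Epcam was not raised in either part, and Cftr was raised in the CD24+ part. Cftr, a chloride channel, read 69.6 in MHs and 52.1 in Sox9+EpCAM- cells, less than 2-fold lower under normexp and when scaled to Gapdh. The 10 hepatocyte markers were well above background on both arrays, with summed intensities of 1109 and 510 and 3 of them at least 4-fold lower, namely Cyp1a2 by 330-fold (-7.55 on the log2 scale under normexp), Cyp2e1 by 44.2-fold and Tat by 5.51-fold (-1.97 under quantile normalization). What these other cells contribute to the values of the macrophage markers was not tested.

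The 250 bases before each gene start, in the RefSeq promoters of GRCm38.p6, were searched on both strands for GAGGAA, a core through which PU.1 acts. Of 32851 promoters, 23.3% hold it. Of the 8 markers in that table, it was found in 4, namely Cd5l, Vsig4, Marco and Cd68. These 8 are not the 8 markers that fell, since they include Cd68 and lack Emr1. Whether PU.1 has a part in the differences was not tested. Csf1r and Emr1 are not shown. The sequences of Clec4f, with the largest measured decrease, of Vsig4 and of Cd68, which rose, are given 5′ to 3′ with GAGGAA in capitals.
Clec4f (chr6:83656117-83656366, minus strand): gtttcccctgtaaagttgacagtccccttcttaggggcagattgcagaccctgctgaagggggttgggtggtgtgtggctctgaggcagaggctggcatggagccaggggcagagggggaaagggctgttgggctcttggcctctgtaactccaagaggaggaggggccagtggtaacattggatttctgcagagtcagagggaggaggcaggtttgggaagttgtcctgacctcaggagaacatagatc
Vsig4 (chrX:96293439-96293688, minus strand): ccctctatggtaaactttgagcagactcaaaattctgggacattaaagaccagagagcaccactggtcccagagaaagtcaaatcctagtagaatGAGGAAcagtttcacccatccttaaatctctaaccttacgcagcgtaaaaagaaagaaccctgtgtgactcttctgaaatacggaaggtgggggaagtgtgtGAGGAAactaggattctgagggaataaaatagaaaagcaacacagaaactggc
Cd68 (chr11:69666171-69666420, minus strand): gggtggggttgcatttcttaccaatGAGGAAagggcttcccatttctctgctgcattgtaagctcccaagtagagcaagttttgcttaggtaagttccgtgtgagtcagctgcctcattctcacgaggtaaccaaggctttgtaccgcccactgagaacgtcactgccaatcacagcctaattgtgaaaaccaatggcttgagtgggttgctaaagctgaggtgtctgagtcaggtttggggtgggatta
Vsig4 holds 2 matches, Cd68 holds 1 and Clec4f holds 0. A match describes the sequence only, and 0 matches says only that these letters are not in this window.

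The directions of the 9 markers other than Csf1r were the same in every alternative that gave a value. Under normexp, Cd163 and Timd4 had differences of -1.97 and -1.99 and did not reach 4-fold, which left 6 markers that did. A 2-fold rule gave 8 markers lower and 1 higher, where 17.9% and 15.2% of all genes passed, and a 10-fold rule gave 6 and 1, where 1.57% and 1.66% passed.

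**Figure D5:**
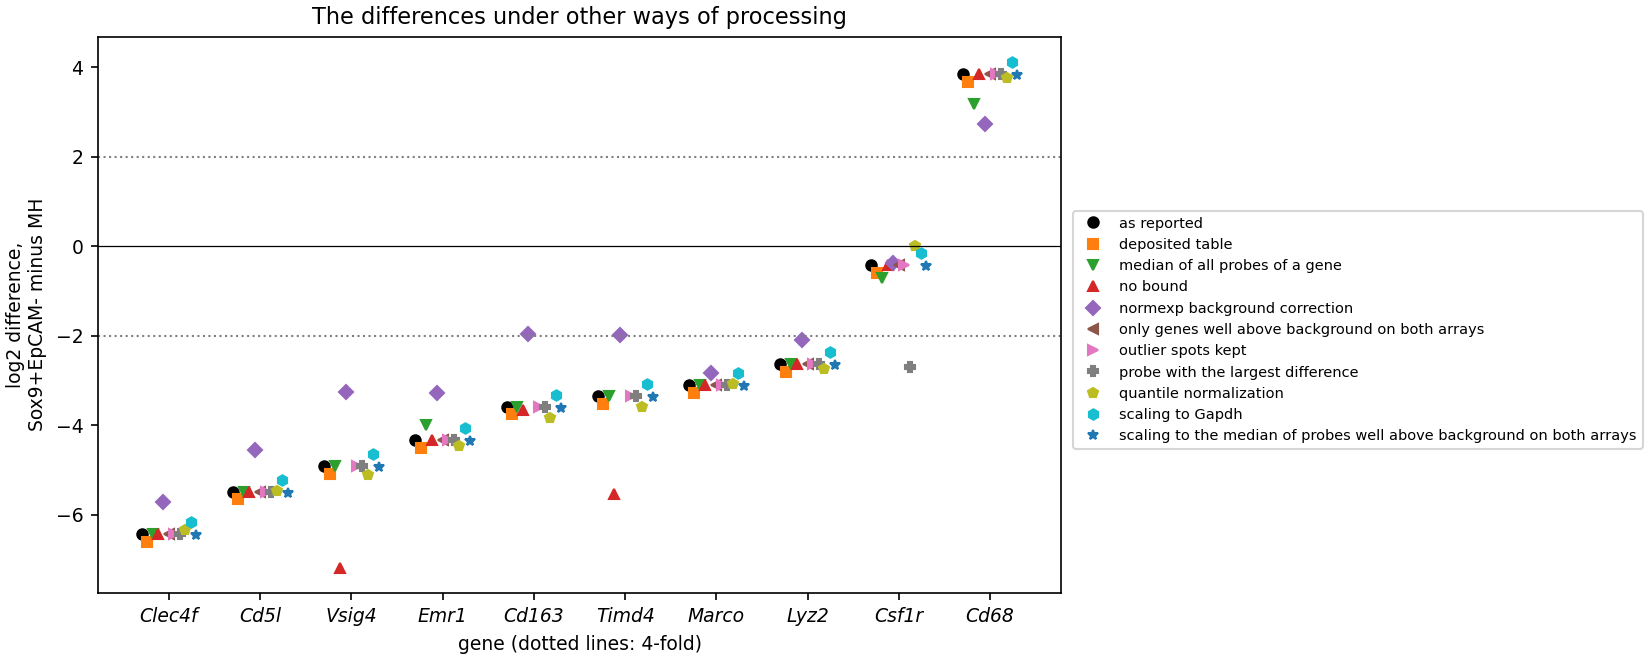
Log2 difference between the Sox9+EpCAM- and MH arrays (y axis) for each marker (x axis) as reported (black) and under each other way of processing (coloured symbols), with dotted lines at 4-fold. Values of a marker lie close together except under normexp, without bounds for Vsig4 and Timd4, for another probe of Csf1r, and for the median of both probes of Cd68.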

How the data were processed

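RNA of MHs and of Sox9+EpCAM- cells was labelled with Cy3 and hybridised by a service provider, each to 1 array. The authors deposited spot intensities from Feature Extraction 10.7.3.1 (background subtracted, detrended within the array, not normalized between arrays), with the raw mean and background intensity, and a table of ratio values. Each ratio was the processed intensity divided by the median of its array (SD of the log2 factor 0.0018 on each array).

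Control spots were dropped, as were spots the software called outliers on 1 array or both, spots of a probe were averaged, and each gene was represented by its brightest probe on average. The rule of size was 4-fold. A bound that pointed the other way (1542 genes) and genes above background on neither array (6736) gave no difference. Coordinates are those of the array design, on mm9. The 10 markers, the lists and the tests were chosen with earlier results of these data known. All markers were named, and from each list up to 3 genes in each direction that differed by at least 2-fold by their representative probe. Ptprc, Spic, Lyve1, Ccr2, Cx3cr1, Dcn, Itgam and the neighbours of Cd68 were named after their values were seen. Some genes that this rule picks are not reported here. Of the 10 names, 9 are current RefSeq symbols and 1 (Emr1) is a synonym.

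Alternatives were normexp (limma 3.58.1 in R 4.3.3, offset 50), 4 other scalings (median of measured probes, quantile, Gapdh, deposited table), other choices of probe, outlier spots kept, no bound, measured genes only, and thresholds of 2-fold and 10-fold. Scripts ran in Python 3.11.15 (pandas 2.3.3, numpy 2.4.6). A simulation took both arrays from the MH array, with noise of SD 0.1 on the log2 scale and every change set above 4-fold. It held no variation between samples, so it checks the calculation only and gives no rate of false calls for these data. With 200 of 30153 genes changed, 100 of 100 changed genes measured on both arrays were recovered within 1.5-fold. Of all 200, 134 (67.0%) reached 4-fold, and 0 unchanged genes did. The number of arrays limits the precision.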

Additional observations from a re-analysis of the deposited data

How the results depend on the processing

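For the 10 markers, their median and their counts, 118 alternative values stayed within 1.5-fold of the reported one and 12 differences or medians moved further. The count of markers at least 4-fold lower moved by over 1.5 times in 1 alternative, and no called value changed sign. What caused the shifts was not tested. Normexp gave log2 differences of -1.97 for Cd163, -4.55 for Cd5l, 2.73 for Cd68, -5.72 for Clec4f, -3.28 for Emr1, -1.99 for Timd4 and -3.25 for Vsig4, and a median of -2.46. Without the bound, Timd4 had -5.53 and Vsig4 -7.18, which use signals not well above background. The median of all probes gave 3.18 for Cd68. The probe with the largest difference, an alternative added after seeing the data, gave -2.71 for Csf1r. With only genes measured on both arrays, 5 markers were at least 4-fold lower, since 3 have only a bound. Among the other named genes, 4-fold was no longer reached by Cdh5, Lgals3, Lrat and Uty (0.77) under normexp, by Id3 (1.89) in the deposited table, by Tat (-1.97) under quantile normalization and by Tlr7 (1.15) with the median of its probes. For other named genes and list medians, 50 alternative values moved by over 1.5-fold and 526 did not. Of the named genes between 2-fold and 4-fold, 9 fell short of 2-fold under normexp and 5 each under quantile normalization and Gapdh scaling. Over all genes, normexp left 660 genes lower and 612 higher by 4-fold, and measured genes only 914 and 758, against 1304 and 1309 reported. Thresholds of 2-fold and 10-fold were met by 8 and 6 markers that fell and by 1 that rose. The deposited table moved all genes by -0.18. Signal over background limits Vsig4, Cd163, Timd4 and the second probe of Emr1. A block for the slide and left-out replicates could not be fitted. No paired analysis was possible because there is a single array per group.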

Other observations

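Itgam, the integrin chain CD11b of myeloid cells, was chosen after its values were seen. Its brightest probe read 92100 in MHs and 84700 in Sox9+EpCAM- cells, or a log2 difference of -0.70. Its 3 probes ranged from -0.70 to 0.37, and the brightest shares 20 bases with a probe of another gene. What these probes bind was not tested.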
